A study of Arabidopsis thaliana with 6 samples.

Results

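The D-type cyclins of Arabidopsis thaliana form a family of 10 genes, CYCD1;1 to CYCD7;1, in 7 subgroups. Members were taken as the loci whose gene name in the deposited gene comparison equals the listed identifier, and each of the 10 had 1 locus among 33233 in all. The reference annotation gives all 10 the matching CYCD symbol. The RNA came from roots of wild-type Col-0 seedlings, aged 8 days and grown on vertical plates under constant light, without any further treatment named in the labels. Zone I was the apical 0.5 mm, with the root cap and the dividing cells, and zone II a 1.5 mm section with the elongating and hair-forming cells. Each zone had 3 libraries, made from a few nanograms of preserved RNA by template switching and PCR, so each library covers the mixed cell types of a whole section. No label says whether the 3 came from separate plants or plates.

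A D-type cyclin is the regulatory subunit that activates a cyclin-dependent kinase (CDK), in plants mainly CDKA;1. The active pair phosphorylates RBR1, the plant retinoblastoma protein, which then releases E2F transcription factors that switch on genes of DNA replication. D-type cyclins respond to sugar and hormones and so link these signals to entry into the cell cycle. The KRP and SIAMESE proteins inhibit the kinase. In the root, D-type cyclins are known for divisions of the meristem, for formative divisions of the ground tissue and for lateral root initiation.

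Many D-type cyclins bind RBR1 through a short motif near the amino end, called LxCxE, made of leucine, any residue, cysteine, any residue and glutamate. The coding stretches that hold this motif are shown because they are the contact to RBR1 and separate the family into members with and without it. They were read from the RefSeq genome TAIR10.1, in the annotated transcript with the longest coding sequence. The capitals mark the 5 codons of the motif, and up to 5 codons stand on each side.
CYCD1;1, AT1G70210 (chr1:26440063-26440107, plus strand): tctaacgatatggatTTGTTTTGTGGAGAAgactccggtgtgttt
CYCD2;1, AT2G22490 (chr2:9555832-9555873, minus strand): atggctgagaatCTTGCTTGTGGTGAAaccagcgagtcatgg
CYCD3;1, AT4G34160 (chr4:16357951-16357995, plus strand): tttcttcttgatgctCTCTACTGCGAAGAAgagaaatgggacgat
CYCD3;2, AT5G67260 (chr5:26836358-26836402, plus strand): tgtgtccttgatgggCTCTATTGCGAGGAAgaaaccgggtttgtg
CYCD3;3, AT3G50070 (chr3:18566583-18566627, minus strand): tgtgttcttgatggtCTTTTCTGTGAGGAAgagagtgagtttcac
CYCD4;1, AT5G65420 (chr5:26143694-26143738, minus strand): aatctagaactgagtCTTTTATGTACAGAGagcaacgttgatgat
CYCD7;1, AT5G02110 (chr5:417087-417125, plus strand): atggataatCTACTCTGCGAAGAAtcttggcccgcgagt
The motif lay within the first 60 codons in these 7 members. No match was found anywhere in the coding sequences of CYCD4;2 (AT5G10440), CYCD5;1 (AT4G37630) and CYCD6;1 (AT4G03270). Coding sequences ran from 897 to 1215 bases. Among the 45 pairs of members, the longest identical coding stretch was 37 bases, within the CYCD4 pair, and the next was 24 bases, within the CYCD3 subgroup. The median over pairs was 12 bases.

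The deposited gene comparison names its conditions control and experiment, and no label ties either name to a zone. A gene is called higher or lower below according to its value in the experiment condition. Of 4 marker genes of dividing cells, all 4 were called lower in the authors' deposited table, the syntaxin KNOLLE at a log2 fold change of -4.98, the mitotic cyclin CYCB1;1 at -3.95, and PLT1 and PLT2 listed at 0 in the experiment condition. Of 4 root cap markers, BRN1, BRN2 and FEZ were called lower and listed at 0 in the experiment condition, and SMB had a log2 of -7.82 (q = 0.310) in the authors' deposited table. All 4 root hair markers were called higher in the authors' deposited table, with log2 fold changes of 4.81 (COBL9), 7.03 (EXPA7), 8.46 (RHS19) and 8.54 (LRX1). By the description of the sections above, these dividing-cell, cap and hair markers point to zone II as the experiment condition and zone I as control. This is read from markers and not from a label, so the condition names are kept. Shoot markers were called higher in 3 of 4 genes in the authors' deposited table, with RBCS1A at 3.44, RCA at 2.84 and LHCB3 at 3.95, while LHCB2.1 had 3.63 (q = 0.134). Markers of dividing cells had the sign of the D-type cyclins called lower, and markers of hairs and shoot that of those called higher. Of all tested loci 21.2% were called lower and 22.3% higher, and genes called the same way share a sign by definition. The shared sign is therefore no result about the D-type cyclins. Whether the cell types of these markers have a part in the calls of D-type cyclins was not tested. In sections of mixed tissue, fewer cells of a type and less RNA per cell cannot be told apart. Only fold changes and tests of whole conditions were used here, so no value per library, no depth and no SD stand beside them. Whether a fold rests on low levels was not checked either.

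The family did not move as a block. The CYCD1 and CYCD6 genes rose in the experiment condition, by 4.77-fold and 6.31-fold. The CYCD5 gene, CYCD3;2 and CYCD3;3 fell, by 11.0-fold, 3.62-fold and 1.89-fold, as calculated from the log2 values of the authors' deposited table. The CYCD2 gene, CYCD3;1 and both CYCD4 genes were tested and not called, and the CYCD7 gene had no test. A gene was called at the authors' own threshold, a Cuffdiff q under 0.01, with the q adjusted over all tested loci. Of 9 tested members 5 were called, 2 higher and 3 lower, and 7 of the 9 had a log2 below 0. Among all 18050 tested loci 43.6% were called, 22.3% higher and 21.2% lower, so the family's share, 55.6% of only 9 genes, is not far from that of all genes. The median log2 of the 9 was -0.88, and that of all tested loci with a finite value was -0.075.

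**Figure D1:**
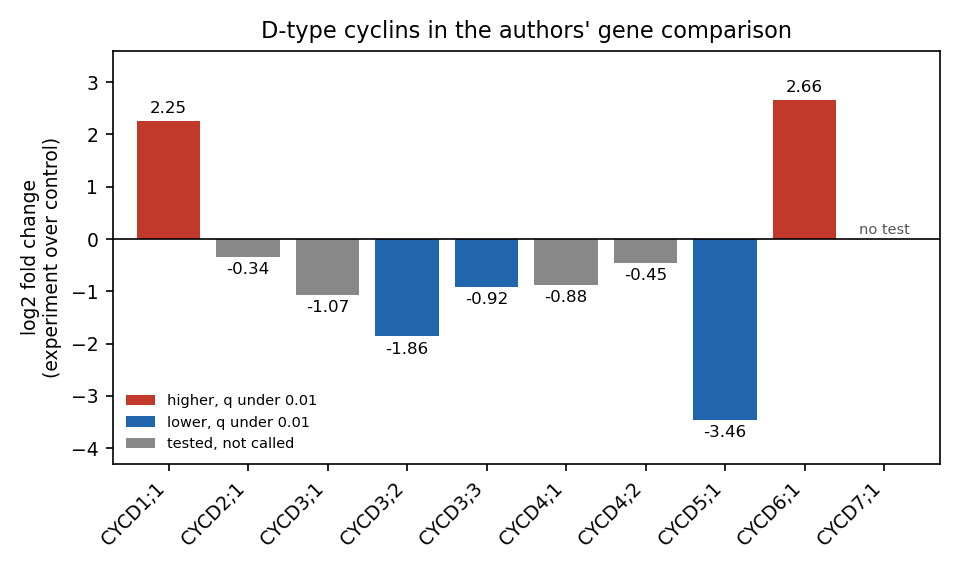
Log2 fold change (experiment over control) of each D-type cyclin in the authors' deposited table, 1 bar per gene. Red and blue bars mark genes called higher and lower at q under 0.01 and grey bars tested genes that were not called. No error bar is drawn because the table gives 1 fold change per gene. The CYCD6 and CYCD1 genes (2.66 and 2.25) stand above 0, the CYCD5 gene (-3.46) lies farthest below, and the CYCD7 gene has no test.

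The single member of the CYCD5 subgroup had the largest change of the family. CYCD5;1 (AT4G37630) has been linked to natural variation in endoreduplication, the copying of DNA without division. In the authors' deposited table its log2 was -3.46 (q = 0.000177), so its value in the experiment condition was 9.08% of that in the control condition. Only 2.96% of tested loci with a finite value had a lower log2. The test statistic of -4.75 was also the most negative of the family in the authors' deposited table. The gene lies on chromosome 4, where the authors' deposited table gives its locus as chr4:17679279-17681202 on TAIR10, and its coding sequence is spread over 5 exons.

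In the CYCD3 subgroup all 3 members had a negative log2. CYCD3 genes prolong the dividing phase of cells in shoot organs and respond to cytokinin. In the authors' deposited table AT5G67260, which is CYCD3;2, had a log2 of -1.86 (q = 0.000177), which leaves 27.6% of the control value. AT3G50070, which is CYCD3;3, had -0.92 (q = 0.00246) in the authors' deposited table. AT4G34160, which is CYCD3;1, had a larger difference, -1.07, but was not called (q = 0.0193 in the authors' deposited table). Fold size and call therefore come in a different order within this subgroup. The test statistics of the authors' deposited table, -4.46 for AT5G67260, -2.03 for AT3G50070 and -1.53 for AT4G34160, follow the calls. Whether the 3 members differ from each other in their change was not tested.

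The single genes of the CYCD6 and CYCD1 subgroups were the members that rose. CYCD6;1 (AT4G03270) is a target of SHR and SCR and acts in the formative division that separates cortex from endodermis. In the authors' deposited table its log2 was 2.66 (q = 0.00106), and 87.6% of tested loci with a finite value had a lower log2. CYCD1;1 (AT1G70210), which is known for the start of cell division in the germinating root, had 2.25 (q = 0.000177) in the authors' deposited table, above 85.0% of those loci. The value of the CYCD6 gene is less certain, because in the reference the gene AT4G03260 on the opposite strand covers 722 of the 1967 bases of its deposited locus (36.7%), and these libraries do not mark the strand. In the authors' deposited table AT4G03260 itself had a log2 of -0.07 (q = 0.808). The other 9 members had no other annotated gene within their deposited locus. On TAIR10 the authors' deposited table places the CYCD1 gene at chr1:26439864-26442829 and the CYCD6 gene at chr4:1431969-1433935.

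**Figure D2:**
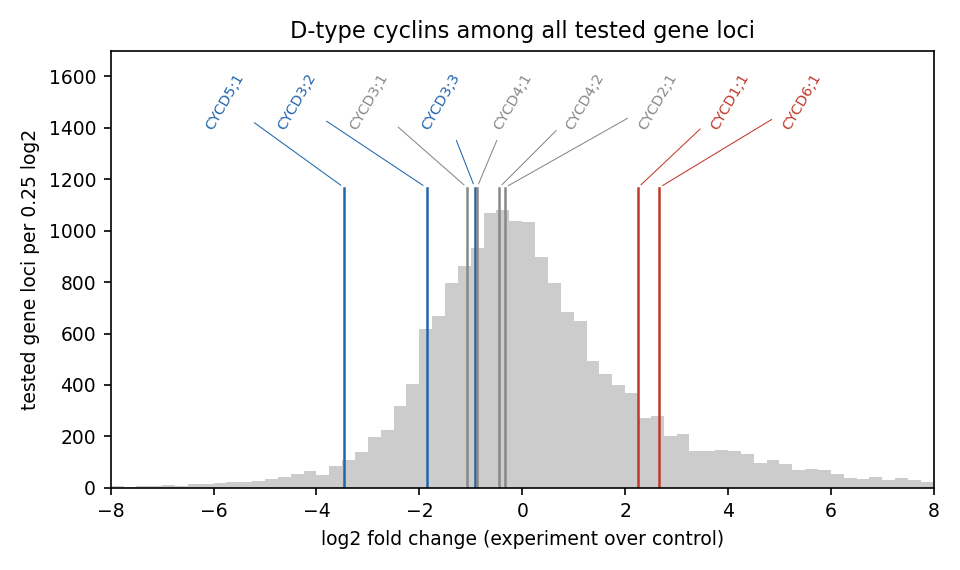
Histogram of the log2 fold change (experiment over control) of the 17323 tested gene loci with a finite value, in steps of 0.25, with a vertical line at each of the 9 tested D-type cyclins. The axis ends at -8 and 8. Red and blue lines are members called higher and lower and grey lines members not called. The CYCD5 gene lies in the lower tail, and the uncalled members lie between -1.07 and -0.34.

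The CYCD2 gene and the CYCD4 pair were the members nearest to no difference. CYCD2;1 (AT2G22490), which acts with KRP2 in lateral root initiation, had a log2 of -0.34 (q = 0.165) in the authors' deposited table. CYCD4;1 (AT5G65420), which acts in pericycle cells of the root, had -0.88 (q = 0.0451) in the authors' deposited table. CYCD4;2 (AT5G10440), known from the stomatal lineage of the hypocotyl, had -0.45 (q = 0.545) in the authors' deposited table. All 3 lie between the quartiles of the tested loci, -1.14 and 1.24, but so do AT3G50070 (-0.92, called lower) and AT4G34160 (-1.07) of the CYCD3 subgroup. That they were not called does not show that their levels were equal in both conditions. At a q under 0.05, which 55.8% of tested loci pass, AT4G34160 of the CYCD3 subgroup and AT5G65420 of the CYCD4 pair would also be called lower.

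CYCD7;1 (AT5G02110) acts in the last division of the stomatal lineage, a cell type of the shoot. It was listed with no test and a log2 of 0 in the authors' deposited table, which does not show equal levels. Whether CYCD7;1 was detected at all was not checked, because the condition values were not used. Among 6 markers of the stomatal lineage, KAT1, EPF1, MUTE, SPCH and FAMA were also listed with no test and a log2 of 0 in the authors' deposited table. MYB60 was the 1 tested gene. The authors' deposited table lists it at 0 in the control condition, and it was called higher (q = 0.000177).

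The 3 members without the LxCxE codons held both ends of the family's range. The CYCD6 gene at 2.66 and the CYCD5 gene at -3.46 had the highest and lowest log2 values of the authors' deposited table among the 9, a span of 6.12, and AT5G10440 of the CYCD4 pair, at -0.45, lay between them. In the authors' deposited table the 6 tested members with the motif lay between -1.86 and 2.25. The upper end rests on the CYCD6 gene, whose value is less certain as stated above. In the isoform comparison described next, the CYCD1 gene, which has the motif, stood above it. The values there were 2.60 (q = 0.485) and 2.39 (q = 0.0297) in the authors' deposited table. These are descriptions of a family of 10, with no test.

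The isoform comparison, a separate table with 16 isoforms of the 10 genes, gave the same signs and fewer calls. Of 12 tested isoforms, from 9 genes, all 12 had the sign of their gene, and 1 was called at q under 0.01 in the authors' deposited table. Both comparisons used the same 6 libraries, so the equal signs are no independent support for the gene values. Among all 32807 tested isoforms 16.8% were called. The called isoform was one of the CYCD5 gene, with a log2 of -3.04 (q = 0.000428) in the authors' deposited table. The other isoform of this gene had a larger fold, -4.42, and was not called (q = 0.344 in the authors' deposited table). For the CYCD2 gene the pair of isoforms stood at -0.19 (q = 0.548) and -0.82 (q = 0.625) in the authors' deposited table, on either side of the gene value. The tested isoform of the CYCD6 gene had 2.39 (q = 0.0297) in the authors' deposited table. Its locus, at 1317 bases, was 0.670 times as long as the gene locus and still overlapped 1 other annotated gene.

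The isoform loci of the other called genes were not those of the gene comparison in every case. The tested isoform of the CYCD1 gene had 2.60 (q = 0.485) in the authors' deposited table, in a locus of 39.6 kb that spans 16 other annotated genes. The isoforms of AT5G67260 (CYCD3;2) were at -1.72 (q = 0.137) and -1.53 (q = 0.453) in the authors' deposited table, in a locus of 27.2 kb that also names AT5G67210. In the reference this locus overlaps 8 other annotated genes. The isoform of AT4G34160, at -0.94 (q = 0.358) in the authors' deposited table, lay in a locus of 18.4 kb that overlaps 4 other annotated genes. AT3G50070 had the same locus in both tables, and its isoform had -0.58 (q = 0.0555) in the authors' deposited table. The loci of the CYCD4 pair were also the same in both tables, and the tested isoforms of AT5G65420 and AT5G10440 were at -0.64 (q = 0.0837) and -0.13 (q = 0.870) in the authors' deposited table. Isoform values differed from the gene's by -0.95 to 0.42 in log2, and 9 of 12 were above it. Another 4 isoforms had no test, 1 of the CYCD1 gene listed at 0 in the experiment condition, 2 of AT5G65420 listed at 0 in the control condition and that of the CYCD7 gene.

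**Figure D3:**
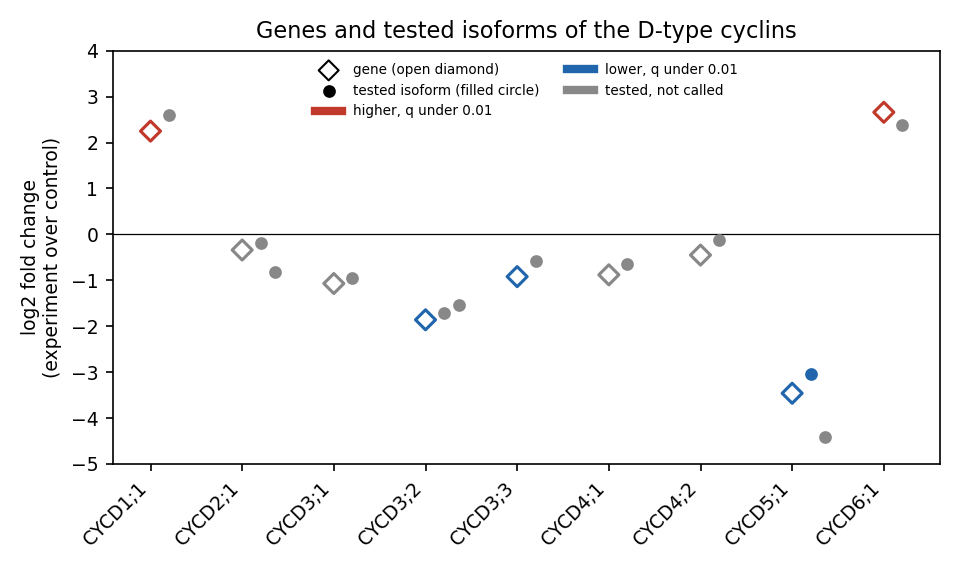
Log2 fold change (experiment over control) of each tested D-type cyclin gene (open diamonds) and of its tested isoforms (filled circles) in the authors' deposited tables. Red and blue mark calls at q under 0.01, higher and lower, and grey no call. All 12 isoforms lie on the same side of 0 as their gene, and the blue circle is the called isoform of the CYCD5 gene at -3.04.

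The kinase partners were lower or not called. The main partner of D-type cyclins, CDKA;1, had a log2 of 0.08 (q = 0.763) in the authors' deposited table. In the list of kinases, their small subunits and their regulators 8 of 13 tested genes fell and none rose (61.5% called lower, against 21.2% of all tested loci), with a median log2 of -1.38. These falls included WEE1, an inhibitory kinase (-2.38), the mitotic kinases CDKB2;2 (-2.23) and CDKB2;1 (-1.78), and CDKD1;1, a CDK-activating kinase (-1.58), in the authors' deposited table. CDKB1;1 (-1.38), the small subunit CKS2 (-0.96), CDKD1;3 (-1.24) and CYCH;1, the cyclin partner of the activating kinases (-1.42), also fell in the authors' deposited table. Of the uncalled genes, CDKB1;2 had -3.23 (q = 0.0681) and CAK4, another activating kinase, -0.73 (q = 0.0288), both values from the authors' deposited table. For 12 of 84 partner genes with a locus of their own, among them the kinases CDKB1;2, CDKB2;1 and CDKD1;3 and, of the genes named in the next paragraphs, E2FA, PCNA2, CYCA3;4, ARR1 and ARR2, the deposited locus was over 1.5 times as long as the annotated gene, so their values may include reads of other genes. The same holds for the shoot marker LHCB3, with a deposited locus of 8026 bases against 1404 annotated.

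RBR1, the substrate of the CYCD kinase, fell by 0.92 on the log2 scale (q = 0.00479 in the authors' deposited table). Among RBR1, E2F and DP genes 8 were tested, of which 5 fell and none rose (62.5% called lower, against 21.2% of all tested loci), with a median of -0.89. DEL1 (-3.14) and DEL3 (-2.63), atypical E2F factors that repress, fell with the activating factor E2FA (AT2G36010, E2F3 in the reference, -1.74) and its partner DPA (-0.86) in the authors' deposited table. E2FC was at -0.66 (q = 0.0903) and E2FB at -0.51 (q = 0.358) in the authors' deposited table. Among replication genes known as E2F targets 8 of 16 fell, none rose, and all 16 had a log2 below 0, as had 50.7% of all tested loci, with a median of -1.17. The share called either way, 50%, is near the 43.6% of all tested loci, and the share called lower compares with 21.2%. CDT1A (-3.31), TSO2 (-2.43), PCNA2 (-1.91) and ORC2 (-1.57) were the largest called falls in the authors' deposited table, and ORC1B (-1.84, q = 0.0712) and CDC6 (-1.81, q = 0.0242) the largest uncalled ones.

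The CDK inhibitors had calls in both directions. Of 14 tested genes 5 rose and 1 fell, with a median log2 of 0.99. The share called either way, 42.9%, is near the 43.6% of all tested loci, and 35.7% were called higher against 22.3%. KRP2 (2.31), AT5G02420 (1.92), AT1G08180 (1.63) and SIM (0.87) rose in the authors' deposited table, and so did KRP1, which is listed there at 0 in the control condition. SMR1 fell (-1.45 in the authors' deposited table). Among those not called, SMR7 had 4.08 (q = 0.0698) and KRP3 had -2.43 (q = 0.0399) in the authors' deposited table.

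No cyclin of the later phases was called higher. Of 7 tested A-type cyclins, which act in S phase and mitosis, 4 fell, and of 9 tested B-type cyclins, which act in mitosis, 5 fell (57.1% and 55.6%, against 21.2% of all tested loci called lower). Their medians of -3.13 and -3.38 compare with -0.88 for the D-type cyclins, and 9 of 9 tested B-type and 7 of 7 tested A-type genes had a log2 below 0, against 7 of 9 D-type genes. Of these A-type genes, CYCA2;2 showed almost no difference (-0.02, q = 0.968 in the authors' deposited table). CYCA3;1 (-3.63), CYCA2;3 (-3.13), CYCA3;2 (-2.99) and CYCA3;4 (-1.71) fell among A-type cyclins in the authors' deposited table. Besides the marker above, 4 B-type cyclins fell, CYCB1;4 (-3.38), CYCB1;3 (-2.86), CYCB2;2 (-2.70) and CYCB2;3 (-2.50) in the authors' deposited table. Large folds without a call in the authors' deposited table were those of CYCA1;1 (-4.18, q = 0.277), CYCA2;4 (-4.01, q = 0.0205), CYCB2;1 (-4.69, q = 0.0181) and CYCB1;2 (-3.70, q = 0.0793). Whether the D-type cyclins differ from the other cyclins was not tested.

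**Figure D4:**
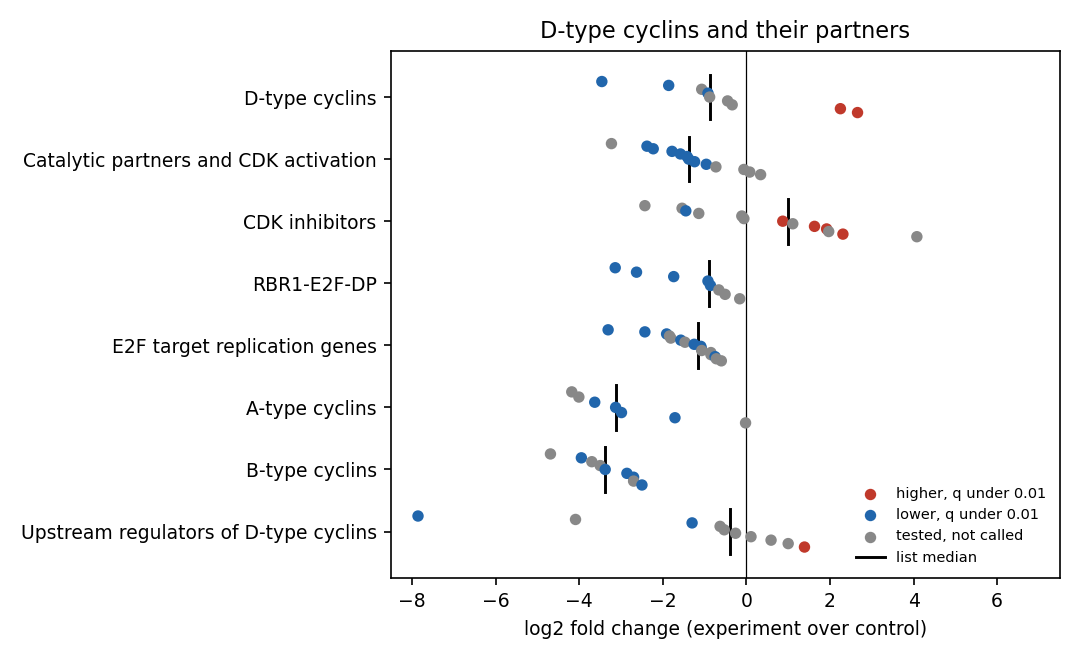
Log2 fold change (experiment over control) of each tested gene with a finite value in the authors' deposited table, 1 point per gene and 1 row per list, with red and blue for genes called higher and lower, grey for no call and a black bar at the list median. The D-type cyclins have points on both sides of 0, and every A-type, B-type and RBR1-E2F-DP point lies below it, CYCA2;2 only just (-0.02). KRP1, listed at 0 in the control condition, is counted in its median and not drawn.

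Among regulators known to act upstream of D-type cyclins 3 of 10 tested genes were called, a share of 30% against 43.6% of all tested loci, so the count is no result about this list. SHR and SCR, the factors that drive the CYCD6 gene, were at -0.26 (q = 0.326) and -0.53 (q = 0.0385) in the authors' deposited table, while their partners MGP (-1.30, q = 0.000177) and JKD (-0.63, q = 0.0149) had a call in MGP only. The cytokinin receptor AHK4 rose (1.39 in the authors' deposited table), and the cytokinin response factors ARR2 (1.00, q = 0.0179), ARR1 (0.59, q = 0.0205) and ARR12 (0.11, q = 0.675) were not called there. AN3, a coactivator of proliferation, fell (-7.86), and AHP6, a cytokinin signalling inhibitor, had -4.09 (q = 0.300) in the authors' deposited table. Of the calls 1 was higher and 2 were lower, and the median of the list was -0.39.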

How the data were processed

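RNA-seq of 6 root libraries, 3 per zone, was compared by the authors with TopHat, Cufflinks and Cuffdiff on TAIR10, per the submitters' processing notes. Their versions, not given in the sources used here, and settings can shape the calls. The deposited tables give per locus a log2 fold change (experiment over control), a test statistic, which is a score, and a p-value and q-value, per the file headers. The 2 columns of condition values in each of the 2 tables carry only the names control and experiment, with no zone label, and were not used. Levels were therefore not compared, and no fold was checked against low levels. Depth is unknown, because counts of single libraries were not analysed here, and no test was added.

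The q-value was checked on the deposited tables against a Benjamini-Hochberg adjustment over all tested loci, and no gene differed by more than 4.9e-06 of its value. A log2 cell with a spreadsheet error (1211 genes) was read as listed at 0 in the experiment condition and an infinite cell (1852 genes) as listed at 0 in the control condition. The lowest p was 5e-05, shared by 5093 genes, so genes with q = 0.000177 cannot be ranked by it.

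The members and lists were chosen with earlier results of these data known. Named genes were all members, RBR1, CDKA;1, all markers, and of each list up to 4 called genes with the largest log2 each way, those called and listed at 0, and up to 2 uncalled ones, taken by log2 in place of level. Further genes of a list were named after their values were seen. Genes with no symbol in the reference table are given by locus. Coding sequences were read from RefSeq TAIR10.1, and upstream sequence is not reported here. All 26066 protein-coding loci that could be matched by name overlapped the reference gene of that name. Locus starts, counted from 0 in the files, are written from 1. Python 3.11.15 and pandas 2.3.3 were used.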

Additional observations from a re-analysis of the deposited data

How the results depend on the processing

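At a q under 0.05 in place of 0.01, the count of D-type cyclins called lower went from 3 to 5, by CYCD3;1 and CYCD4;1, and the count called higher was 2 at both. In the isoform comparison 1 gene had an isoform called lower (CYCD5;1) and 0 had one called higher. At an unadjusted p under 0.05, Cuffdiff's isoform test had 5 of 12 isoforms. The share of all tested isoforms at that p was not computed, so this count is no result about the family. All called loci numbered 7863 at q under 0.01 and 10072 at q under 0.05. Centring on the median of tested loci (-0.075) could change no sign among the 9 tested members, because the log2 nearest to 0 was -0.34 (CYCD2;1). It is therefore no check of the signs. Among partner lists, the count of inhibitors called lower went to 3 at q under 0.05, and that of upstream regulators to 3 higher and 4 lower. The cause of these differences was not tested. Pseudocounts, a filter on low FPKM and sums of isoform FPKM need the condition values and were not run. No paired analysis was possible because the deposited tables hold no value per library, and for the same reason no replicate could be left out. The depth of the libraries, and what it limits, is unknown.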
